A study of Rattus norvegicus with 6 samples.

Results

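The genes described here are the enzymes by which the liver takes amino acids apart and disposes of their nitrogen. They were chosen by name, but with earlier results of these data known. The shares of members called are therefore set beside those of all genes as a description, without a test. The members are 43 rat genes of the urea cycle and of amino acid catabolism, sorted into 10 routes by the amino acid they act on. Probes were matched to them through RefSeq accessions, which gave 59 probes for 40 of the 43 genes, out of 15284 genes named on the array. Uroc1, Gldc and Shmt1 had no matching probe, so their RNA was not measured here. All 40 were well above background on all 6 arrays, so none entered or left through the filter on dim probes.

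The study measured liver RNA of male Sprague-Dawley rats on 1-colour Agilent arrays, 1 rat per array. The 3 rats of one group had received ADBAQ (1-Amino-2,4-Dibromoanthraquinone), an intermediate for anthraquinone dyes, at 1000 mg/kg/day, and the 3 rats of the other group had received the vehicle alone. The rats were 5 weeks old at purchase, no genetic change is named for either group, and the protocol speaks of separate animals. The labels are not of one mind on the vehicle (purified water in one field, corn oil in another) or on the length of dosing (28 days or 9 weeks). Between 62.1% and 65.3% of the 61657 probes were well above background on an array, and none was saturated. The vehicle arrays shared 1 slide and 1 scan day and the ADBAQ arrays another slide and another day, so that treatment, slide and scan day cannot be told apart. Of 11344 genes tested, 2308 (20.3%) differed at an adjusted p under 0.05, 1281 (11.3%) lower and 1027 (9.05%) higher in ADBAQ.

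Amino acids that are not needed for protein are broken down mainly in hepatocytes. Their amino groups are gathered on glutamate and aspartate and end, as ammonia and aspartate, in the urea cycle, while the carbon skeletons go to glucose, ketone bodies or the citric acid cycle. Much of this enzyme set is known to be raised by dietary protein, glucagon and glucocorticoids and to lie towards the portal side of the lobule. In bulk liver RNA, fewer hepatocytes and less RNA per hepatocyte cannot be told apart.

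Most of these genes were lower in the ADBAQ rats. With each gene represented by its brightest probe, 26 of 40 (65.0%) fell and 2 rose, against 11.3% lower and 9.05% higher among all genes tested. The test was limma's, with Benjamini-Hochberg adjusted p-values taken across every probe kept and read at 0.05. In 9 of the 26 (22.5% of the members, against 2.71% of all genes) the fall was at least 2-fold. The groups did not overlap in 33 members, against 46.3% of all genes. In 31 of them (77.5% of the members) every ADBAQ rat lay below every vehicle rat, against 25.1% of all genes, and in 2 every ADBAQ rat lay above, against 21.2%. The median log2 fold change of the members was -0.67, and that of all genes was -0.038. The members are bright genes, and among the 2055 genes at or above their lower quartile of mean level 19.0% were called lower and 6.37% higher. Of the 28 calls, 16 held with any 1 array left out, and the same share over all genes is not reported here. The 2 genes that rose were Tat, tyrosine aminotransferase, and Hibch, of valine breakdown.

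Direction here means relative to the 75th percentile of an array. When the arrays were scaled by the spike-in controls instead, which are RNAs added in known amounts, all genes shifted up together. The median of all genes then lay at 0.718 and that of the members at 0.08. Both scalings subtract a constant from each array, so the distance between the medians (-0.64) could not change. On the spike-in scale 5 members were called lower and 8 higher, against 1.65% lower and 78.8% higher among all genes. On that scale Aass, Gnmt, Kynu, Cps1 and Ivd were still called lower, and 23 of the 40 members changed sign. With normexp background correction, quantile normalization or median centring, no member changed sign, and the member median was -0.59, -0.61 and -0.64. Members called lower then numbered 29, 23 and 25, against 23.3%, 9.83% and 9.71% of all genes, and 2 were called higher each time, against 12.3%, 10.2% and 9.9%.

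**Figure D1:**
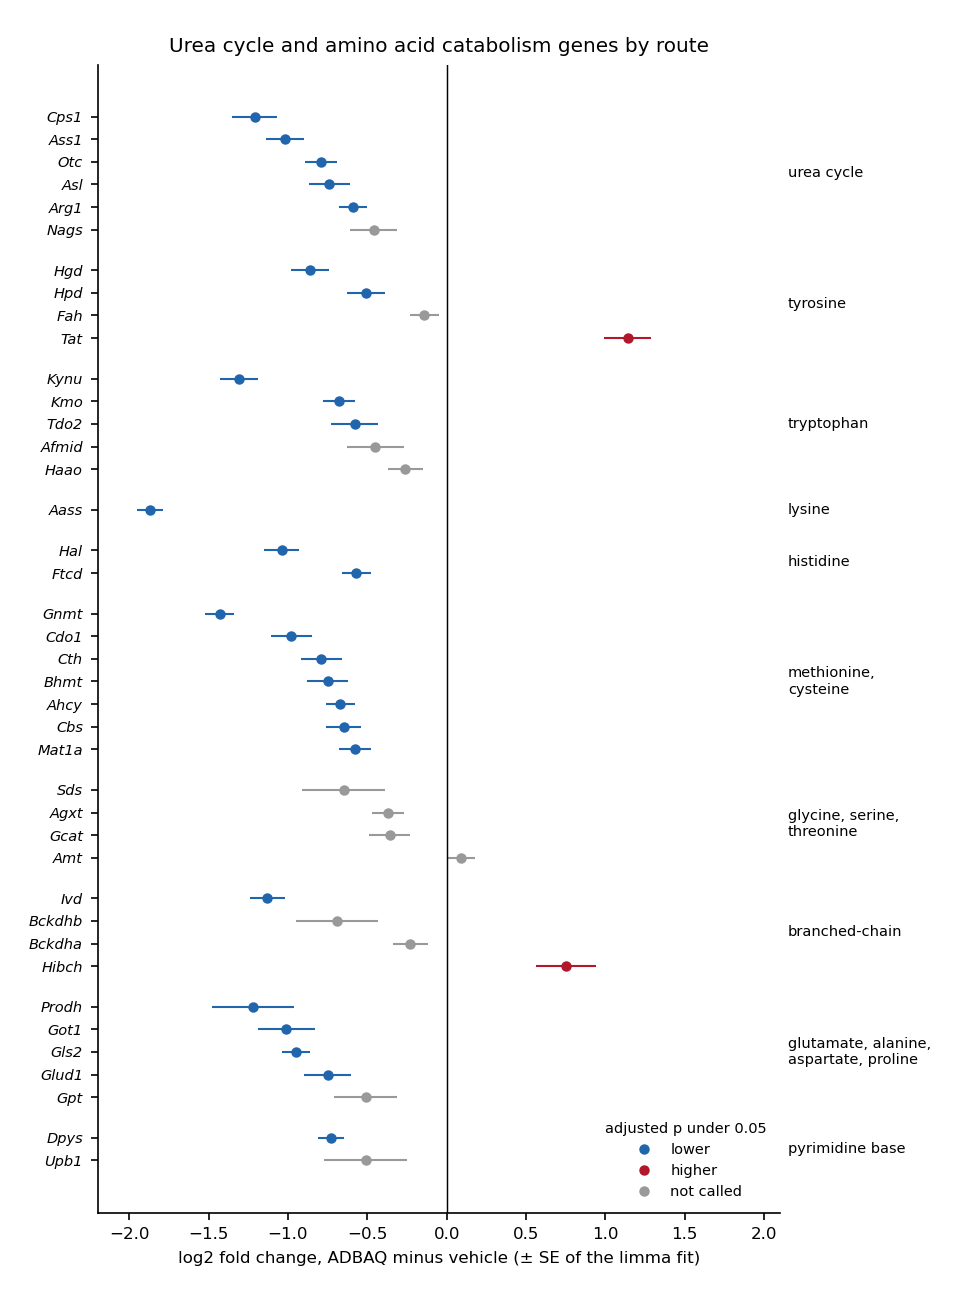
Log2 fold change (ADBAQ minus vehicle, 3 rats per group) of the brightest probe of each of the 40 members, by route, with the SE of the limma fit as bars; blue and red mark an adjusted p under 0.05, grey the 12 genes not called. Of the 40 points 37 lie below 0 on this scale, and Tat (1.14), Hibch (0.75) and Amt (0.09) lie above; with spike-in scaling 23 of the members change sign.

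Promoter windows from RefSeq (build GRCr8), covering 250 bases before to 50 after the annotated start, were found for 35 of the 43 genes. Shown are those of 5 genes on which the results turn: Aass (chr4:52628762-52629061, minus strand), the gene with the largest fall on a brightest probe, Gnmt (chr9:21752032-21752331, plus strand), with the next largest, Cps1 (chr9:76063613-76063912, plus strand) and Kmo (chr13:90089271-90089570, plus strand), which both fell and hold the same HNF4-type letters, and Tat (chr19:54856354-54856653, plus strand), which rose. Each is written 5′ to 3′ on the gene's strand, and capitals mark every match to the motifs searched.
Aass: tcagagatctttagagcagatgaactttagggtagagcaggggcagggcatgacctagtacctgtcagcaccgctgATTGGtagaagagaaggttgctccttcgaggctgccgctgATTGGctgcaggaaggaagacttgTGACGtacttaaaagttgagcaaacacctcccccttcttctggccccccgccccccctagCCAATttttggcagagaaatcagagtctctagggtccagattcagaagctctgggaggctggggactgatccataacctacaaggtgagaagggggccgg
Gnmt: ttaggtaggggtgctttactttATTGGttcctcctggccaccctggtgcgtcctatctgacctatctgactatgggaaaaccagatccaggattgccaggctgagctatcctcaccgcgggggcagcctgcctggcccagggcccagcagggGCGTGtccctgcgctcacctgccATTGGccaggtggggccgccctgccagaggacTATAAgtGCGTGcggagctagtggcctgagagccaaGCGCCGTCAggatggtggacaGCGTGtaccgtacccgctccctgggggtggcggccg
Cps1: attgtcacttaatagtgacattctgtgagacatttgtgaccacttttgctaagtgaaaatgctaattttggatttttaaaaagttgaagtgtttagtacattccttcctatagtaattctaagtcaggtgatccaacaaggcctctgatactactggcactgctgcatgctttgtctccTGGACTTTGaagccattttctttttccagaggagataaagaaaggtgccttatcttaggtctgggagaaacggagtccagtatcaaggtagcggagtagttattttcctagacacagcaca
Kmo: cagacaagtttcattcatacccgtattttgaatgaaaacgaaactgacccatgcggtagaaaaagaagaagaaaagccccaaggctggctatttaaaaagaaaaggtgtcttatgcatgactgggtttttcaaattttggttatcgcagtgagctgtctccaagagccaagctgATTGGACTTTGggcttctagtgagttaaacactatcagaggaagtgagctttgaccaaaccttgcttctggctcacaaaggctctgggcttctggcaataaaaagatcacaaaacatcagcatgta
Tat: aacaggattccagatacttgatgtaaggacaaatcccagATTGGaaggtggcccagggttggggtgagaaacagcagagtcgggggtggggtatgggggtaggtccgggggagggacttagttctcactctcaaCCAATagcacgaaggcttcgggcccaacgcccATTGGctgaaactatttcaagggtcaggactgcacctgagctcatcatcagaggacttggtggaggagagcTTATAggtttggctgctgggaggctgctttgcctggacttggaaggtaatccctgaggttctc

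The motifs were searched on both strands. The HNF4-type site CAAAGTCCA, named for a hepatocyte nuclear receptor, was in 2 of 35 member windows (5.7%), those of Cps1 and Kmo, and in 0.4% of the 9302 windows of tested genes. CCAAT was in 20 (57.1%) against 38.4%, and TATAA in 8 (22.9%) against 16.3%. The 35 windows include those of Uroc1, Gldc and Shmt1, which had no probe and are not among the tested genes. Each of these holds CCAAT, and that of Uroc1 also holds the antioxidant core given below. In Kmo the CCAAT match overlaps the HNF4-type match. The core of the aryl hydrocarbon receptor site, GCGTG, was in 12 (34.3%) against 46.1%, with 3 copies in the window of Gnmt. TGACG, the core of the cAMP response element, was in 6 (17.1%) against 30.0%, and TGTTCT, the core of the glucocorticoid receptor site, in 6 (17.1%) against 13.6%. The antioxidant core TGACNNNGC was in 6 (17.1%) against 14.4%, where it can overlap TGACG, as it does in Gnmt. GTTAAT, of the HNF1 type, was in 2 (5.7%) against 5.0%. The whole cAMP element TGACGTCA, the C/EBP type TTGCNNCAA and the composite ATTGCATCA of ATF4 and C/EBP were in no member window, against 2.9%, 2.2% and 0.2%. The window of Tat holds 3 CCAAT matches and 1 TATAA match, and that of Aass 3 CCAAT matches and 1 of TGACG. The direction of some differences depends on the windows compared. Over all 27457 windows, whether or not the gene was tested, GCGTG was in 31.1%, TATAA in 26.1%, TGTTCT in 20.1% and GTTAAT in 7.4%. Against these shares the members lay above for GCGTG and below for the others, the reverse of the comparison with tested genes. These are matches of letters and not measured binding.

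The urea cycle fell nearly throughout. Of its 6 enzymes 5 were called lower, with a median of -0.77 over the 6 (-0.01 with spike-in scaling, where Nags, Asl and Arg1 turned positive). Levels are log2 of the processed signal relative to the array's 75th percentile. Cps1, which makes carbamoyl phosphate from ammonia and commits it to the cycle, was at 3.70, 3.30 and 3.52 in the vehicle rats and at 2.41, 2.11 and 2.37 in the ADBAQ rats. The groups lay well apart, and the change was -1.21 ± 0.14 (SE, n = 3 per group; adjusted p = 0.00622), a 2.31-fold fall. Ass1, which joins citrulline to aspartate, was at 6.43, 6.16 and 6.53 in vehicle and 5.35, 5.45 and 5.26 in ADBAQ, a change of -1.02 ± 0.12 (adjusted p = 0.00673). Otc, the mitochondrial enzyme that makes citrulline, was at 5.15, 4.90 and 5.05 against 4.15, 4.30 and 4.27 (-0.79 ± 0.10, adjusted p = 0.00803). For all 3 enzymes every treated rat lay below every control rat, and the calls held with any 1 array left out.

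Of the other 3 genes, Asl and Arg1 fell and Nags did not pass. Asl, which releases arginine and fumarate, was at 6.41, 6.35 and 6.33 in vehicle and 5.88, 5.48 and 5.51 in ADBAQ, with replicate 1 the highest of the treated rats. Its change was -0.74 ± 0.13 (adjusted p = 0.0160), its second probe changed by -0.80 (adjusted p = 0.0330), and the call was lost without ADBAQ replicate 2 or 3 (highest adjusted p = 0.0551). Arg1, the arginase that splits off urea, was at 7.98, 7.78 and 7.97 against 7.27, 7.37 and 7.32 (-0.59 ± 0.09, adjusted p = 0.0131), a call lost without ADBAQ replicate 1 (adjusted p = 0.0522). Nags makes acetylglutamate, the obligate activator of Cps1. It was at 3.01, 2.55 and 2.77 in vehicle and 2.16, 2.30 and 2.52 in ADBAQ, so the groups just failed to overlap, and the change did not pass the threshold (-0.46 ± 0.15, adjusted p = 0.0881).

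Tyrosine breakdown split at its entry. Tat, which removes the amino group of tyrosine and is a classic hormone-induced liver gene, was at 1.83, 1.33 and 1.81 in vehicle and 2.87, 2.74 and 2.79 in ADBAQ. All treated rats were above all controls and lay within a narrower range, and Tat rose by 1.14 ± 0.15 (2.20-fold, adjusted p = 0.00883; 1.90 with spike-in scaling), with the call kept when any 1 array was left out. Downstream, Hgd, homogentisate dioxygenase, was at 6.92, 6.70 and 6.86 against 5.78, 6.02 and 6.10. That was a fall by 0.86 ± 0.12 (adjusted p = 0.00948), and its second probe changed by -0.85. Hpd, which makes homogentisate, changed by -0.51 ± 0.12 (adjusted p = 0.0360). Its call was lost with quantile normalization (-0.41, adjusted p = 0.0735) and without any 1 array but vehicle replicate 2 (highest adjusted p = 0.111). Fah, which ends the route by splitting fumarylacetoacetate, was at 6.16, 6.32 and 6.31 against 6.13, 6.21 and 6.05, overlapping ranges with a difference of -0.14 ± 0.09 (adjusted p = 0.342). With spike-in scaling Hpd (0.25) and Fah (0.62) turned positive, and Fah was called.

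Along the kynurenine route of tryptophan, 3 of 5 enzymes fell, with a median of -0.58 (0.17 with spike-in scaling, where all but Kynu turned positive). Kynu, kynureninase, was at 6.37, 6.27 and 6.37 in vehicle and 4.83, 5.17 and 5.09 in ADBAQ. Its change of -1.31 ± 0.12 (2.48-fold, adjusted p = 0.00309) was matched by its second probe at -1.35. Kmo, the monooxygenase that makes hydroxykynurenine, and Tdo2, the dioxygenase that opens the route, changed by -0.68 ± 0.10 (adjusted p = 0.00954) and -0.58 ± 0.15 (adjusted p = 0.0456). The call of Tdo2 was lost with quantile normalization, with median centring (adjusted p = 0.0642 and 0.0540) and without any 1 array but vehicle replicate 2 (highest adjusted p = 0.128). Afmid, the formamidase between Tdo2 and Kmo, did not pass (-0.45 ± 0.18, adjusted p = 0.130), though it did with normexp background correction (adjusted p = 0.0395). Haao, which acts after Kynu, was at 3.91, 3.69 and 4.00 against 3.59, 3.70 and 3.51, with overlapping ranges (-0.26 ± 0.11, adjusted p = 0.152).

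All 3 measured genes of lysine and histidine breakdown fell. Aass, the bifunctional enzyme that starts lysine degradation, was at 1.07, 1.13 and 1.01 in vehicle and -0.81, -0.83 and -0.76 in ADBAQ. The rats of each group lay close to one another and far from the other group, and the fall was 3.66-fold (-1.87 ± 0.08, adjusted p = 0.000452; -1.12 with spike-in scaling, also called). Hal, which removes ammonia from histidine, was at 6.60, 6.42 and 6.56 against 5.63, 5.48 and 5.36 (-1.04 ± 0.11, adjusted p = 0.00456). Ftcd, which passes the last carbon of histidine to folate, was at 6.56, 6.63 and 6.52 against 6.12, 5.92 and 5.97. Its ranges also lay apart (-0.57 ± 0.09, adjusted p = 0.0144), but the call was lost without ADBAQ replicate 2 or 3 (highest adjusted p = 0.0519), and it turned positive with spike-in scaling (0.19).

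All 7 genes of methionine and cysteine metabolism were called lower, with a median of -0.75 (0.01 with spike-in scaling, where Mat1a, Ahcy, Bhmt and Cbs turned positive). This route turns methionine into S-adenosylmethionine, the methyl donor of the cell, then into homocysteine, and from there to cysteine or back to methionine. Gnmt, which uses up surplus methyl donor on glycine, was at 7.10, 7.03 and 7.16 in vehicle and 5.58, 5.65 and 5.77 in ADBAQ, the second largest fall among the brightest probes (-1.43 ± 0.09, 2.70-fold, adjusted p = 0.00142). Cdo1, cysteine dioxygenase, which commits cysteine to taurine and sulfate, fell by 0.98 ± 0.13 (adjusted p = 0.00871). Cth and Cbs, the enzymes of transsulfuration, changed by -0.79 ± 0.13 and -0.65 ± 0.11. Bhmt, which remethylates homocysteine with betaine, changed by -0.75 ± 0.13 and its second probe by -0.99, and Ahcy, which forms homocysteine, by -0.67 ± 0.09. The smallest change was that of Mat1a, the liver S-adenosylmethionine synthetase, at 8.67, 8.52 and 8.42 against 7.95, 7.97 and 7.96 (-0.58 ± 0.10, adjusted p = 0.0137), with its other probes both at -0.55. The calls of Gnmt, Cdo1, Cth and Ahcy held with any 1 array left out. That of Mat1a was lost without ADBAQ replicate 1 (adjusted p = 0.0528), that of Cbs without ADBAQ replicate 1 or 2 (highest adjusted p = 0.0562), and that of Bhmt when replicate 2 of either group was dropped (highest adjusted p = 0.0546) and with quantile normalization (-0.50, adjusted p = 0.0801). The related gene Bhmt2 did not pass (-0.16 ± 0.09, adjusted p = 0.227), and probe sequences were not examined for targets that the pair shares.

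**Figure D2:**
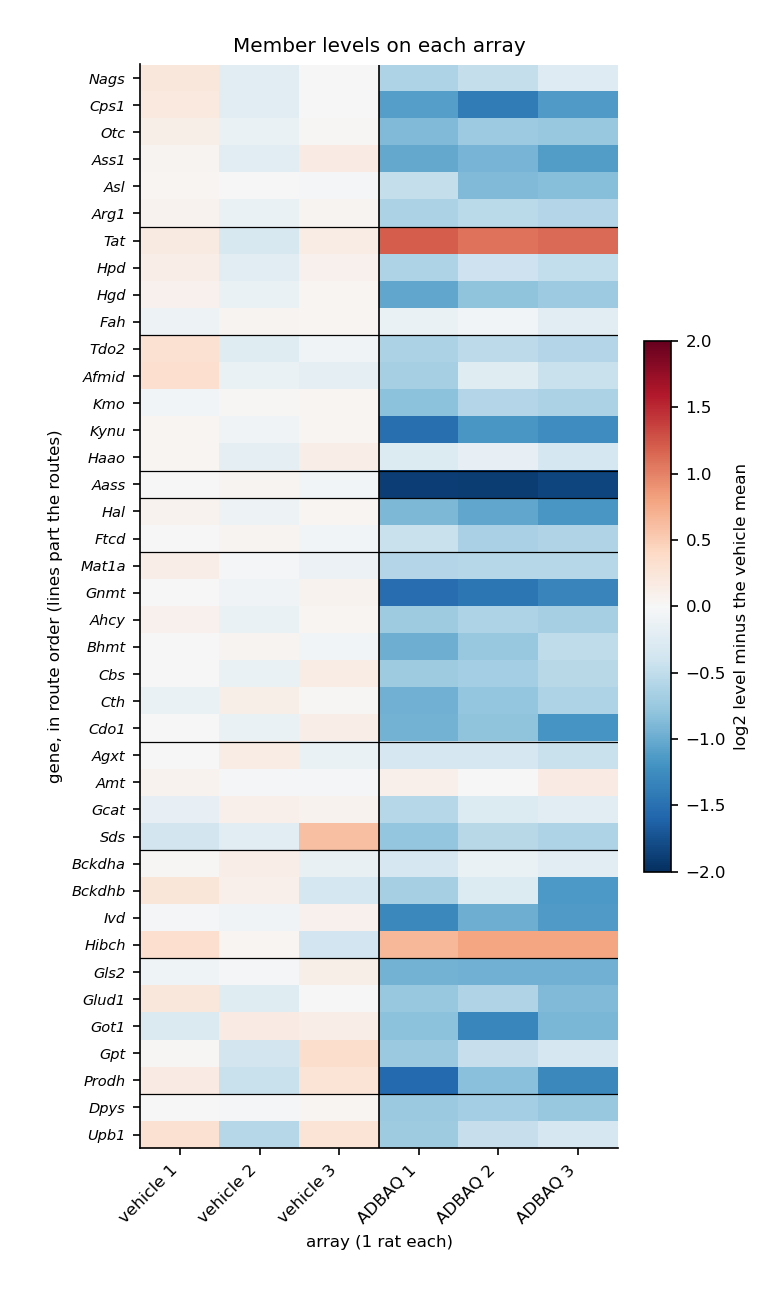
Level of each of the 40 members on each of the 6 arrays (columns, 1 rat each), as log2 difference from the gene's mean over the 3 vehicle rats; blue is lower and red higher, and lines part the routes. Aass, Gnmt and Kynu are among the darkest in all ADBAQ rats, Tat and Hibch are the red lines on the ADBAQ side, and vehicle replicate 2 holds the lowest vehicle value of 23 members.

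None of the 4 measured genes of glycine, serine and threonine breakdown was called on its brightest probe, with a median of -0.36 (0.39 with spike-in scaling, where Agxt, Gcat and Sds turned positive and Agxt, Amt and Gcat were called higher). Amt, a subunit of the glycine cleavage system, was at 0.14, 0.03 and 0.05 in vehicle and 0.18, 0.07 and 0.24 in ADBAQ, with overlapping ranges and the smallest change of any member (0.09 ± 0.09, adjusted p = 0.510). Agxt, the aminotransferase that detoxifies glyoxylate, changed by -0.37 ± 0.10 (adjusted p = 0.0571) on its brightest probe and by -0.52 ± 0.11 (adjusted p = 0.0288) on the other, and the brightest probe was also called lower with normexp background correction (adjusted p = 0.0220), without the filter on dim probes (0.0476), with trend and robust in the variance model (0.0293) and with array weights (0.0467), as was the mean of its probes (0.0395). Gcat, of threonine breakdown, did not pass on either probe (-0.36 and -0.41, adjusted p = 0.107 and 0.0529) except with normexp background correction (-0.45, adjusted p = 0.0128).

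Sds, serine dehydratase, which turns serine into pyruvate for glucose synthesis and is known for very large swings with diet and hormones, gave different answers on its 2 probes, both assigned to the same transcript accession. On the brighter probe it was at 0.02, 0.17 and 0.99 in vehicle and -0.38, -0.16 and -0.22 in ADBAQ, a difference of -0.65 ± 0.26 that did not pass (adjusted p = 0.126). On the other probe it was at -0.19, 0.98 and 2.66 in vehicle and -2.67, -3.76 and -2.88 in ADBAQ. There the fall was 19.0-fold (-4.25 ± 0.71, adjusted p = 0.0144), and only 20 of the 38695 probes tested had a change as low or lower, this probe included. The vehicle rats differed widely on this probe (SD 1.43), with replicate 3 highest and replicate 1 lowest on both probes, yet all lay far above the ADBAQ rats. The signal was well above background on all 6 arrays, and the call held with any 1 array left out (-4.92 to -3.50, highest adjusted p = 0.0479), with normexp background correction (-3.37) and with spike-in scaling (-3.50). Among the 14 members with several probes, the probes of the other members lay within 0.25 of each other, against 3.60 for Sds. Which probe reports the transcript was not tested. Sds is counted above as not called, by the probe that is brighter over all 6 arrays. In the vehicle rats alone the other probe was the brighter (mean 1.15 against 0.39), so its own fall decided the choice, and with the mean of both probes Sds was called lower (-2.45, adjusted p = 0.0198).

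**Figure D3:**
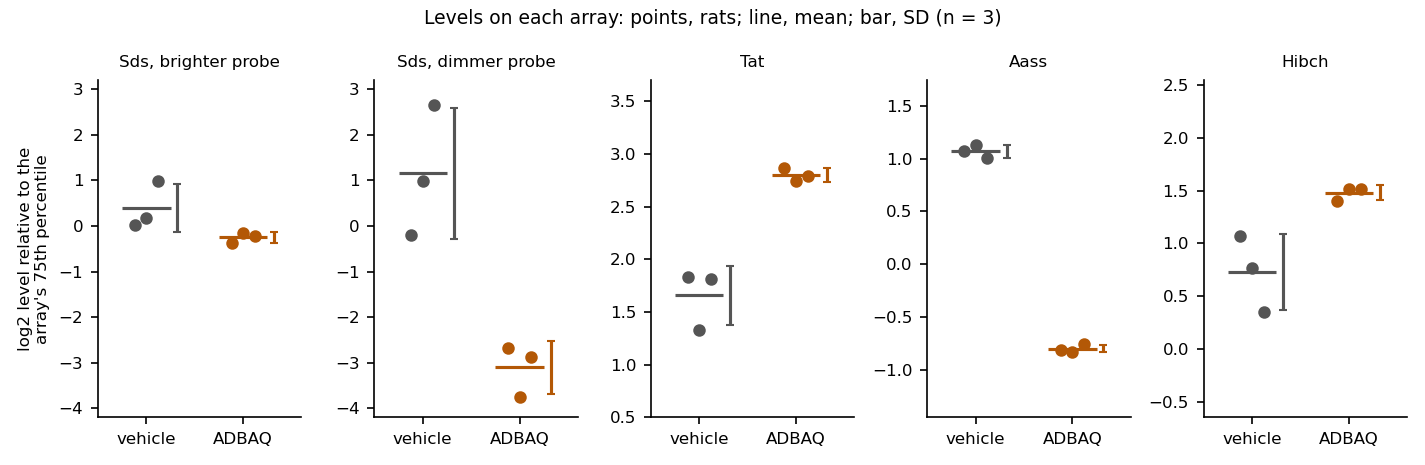
Log2 level relative to the array's 75th percentile on each array for both Sds probes and for Tat, Aass and Hibch; points are rats, lines means and bars SD (n = 3), the Sds panels share 1 axis, and the axes of the other panels differ in position but span the same range. The dimmer Sds probe drops from between -0.19 and 2.66 to between -3.76 and -2.67, while the brighter one stays between -0.38 and 0.99.

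Branched-chain amino acid breakdown moved both ways. Its 4 members had a median of -0.46 (0.30 with spike-in scaling, where Bckdha and Bckdhb turned positive and Bckdha was called higher). Ivd, isovaleryl-CoA dehydrogenase of the leucine route, was at 4.29, 4.25 and 4.41 in vehicle and 3.03, 3.34 and 3.18 in ADBAQ, a 2.19-fold fall (-1.13 ± 0.11, adjusted p = 0.00399). Hibch, which frees hydroxyisobutyrate from its CoA in valine breakdown, went the other way, at 1.07, 0.77 and 0.35 against 1.40, 1.52 and 1.52. It rose by 0.75 ± 0.19 (adjusted p = 0.0401), with its other probes at 0.72 and 0.68 (adjusted p = 0.0371 and 0.0572). The vehicle rats were widely spread, and the call stood only without vehicle replicate 1 and was lost without any other array (highest adjusted p = 0.108). The shared branched-chain ketoacid dehydrogenase was not called in either subunit measured: Bckdha was at 3.67, 3.78 and 3.51 against 3.32, 3.52 and 3.42 (-0.23 ± 0.11, adjusted p = 0.184), and Bckdhb changed by -0.69 ± 0.26 (adjusted p = 0.112), with overlapping ranges in both.

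Of the 5 genes that move nitrogen through glutamate, alanine, aspartate and proline, 4 fell, with a median of -0.95 (-0.19 with spike-in scaling, where Glud1 and Gpt turned positive). Prodh, proline dehydrogenase, had the largest change and the widest spread, at 6.29, 5.69 and 6.41 in vehicle and 4.58, 5.30 and 4.84 in ADBAQ. The groups did not overlap (-1.22 ± 0.26, 2.33-fold, adjusted p = 0.0255), all 4 of its probes were called, between -1.38 and -1.13, and leaving out vehicle replicate 2 or ADBAQ replicate 2 kept the call while leaving out any of the other arrays ended it (highest adjusted p = 0.0786). Gls2, the liver glutaminase that feeds ammonia to the urea cycle, changed by -0.95 ± 0.09 (adjusted p = 0.00347). Got1, an aspartate aminotransferase, changed by -1.01 ± 0.18 (adjusted p = 0.0167, lost without vehicle replicate 2 or 3, highest adjusted p = 0.0530). Glud1, glutamate dehydrogenase, changed by -0.75 ± 0.15 (adjusted p = 0.0224, reaching 0.0732 at most when ADBAQ replicate 1, ADBAQ replicate 3 or vehicle replicate 3 was dropped, each of which ended the call), with its other probes at -0.92 and -0.88. Gpt, alanine aminotransferase, was at 4.16, 3.78 and 4.49 against 3.40, 3.68 and 3.81, with overlapping ranges (-0.51 ± 0.20, adjusted p = 0.128).

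Of the 2 enzymes of pyrimidine base breakdown, 1 fell. Dpys, dihydropyrimidinase, was at 4.53, 4.51 and 4.57 in vehicle and 3.80, 3.85 and 3.78 in ADBAQ, with little spread (-0.73 ± 0.08, adjusted p = 0.00505; 0.03 with spike-in scaling). Upb1, ureidopropionase, was at 5.93, 5.05 and 5.90 against 4.92, 5.17 and 5.29. Vehicle replicate 2 lay among the treated rats, and the difference did not pass (-0.51 ± 0.26, adjusted p = 0.208; 0.25 with spike-in scaling) except without that array (-0.79, adjusted p = 0.0342).

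The rats of a group were close to each other for most members. The median SD over the 40 members was 0.14 in vehicle and 0.11 in ADBAQ, against 0.14 and 0.13 for all genes tested. Vehicle replicate 2 had the lowest vehicle value for 23 of the 40 members, and ADBAQ replicate 1 the lowest ADBAQ value for 23. Their median deviations from the group mean were small, at -0.09 and -0.05.

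A further 88 genes of these pathways that are not members were listed, and 76 of them were tested. Of the 76, 27 fell and 4 rose, with a median of -0.32. These were 35.5% lower and 5.26% higher, against 11.3% and 9.05% of all genes. With spike-in scaling the median was 0.43, and 5 were called lower (6.58%, against 1.65% of all genes) and 44 higher (57.9%, against 78.8%). The largest falls, at most 2 per list, were those of Oat, Aspg, Hykk and Ethe1. Oat, ornithine aminotransferase, which lies on the pericentral side, was at 4.51, 4.71 and 4.91 in vehicle and 2.83, 2.84 and 2.98 in ADBAQ (-1.83 ± 0.13, adjusted p = 0.00156; -1.07 with spike-in scaling). Aspg, an asparaginase, was at 6.08, 6.33 and 6.58 against 4.84, 4.93 and 4.54 (-1.56 ± 0.17, adjusted p = 0.00480). Hykk, hydroxylysine kinase, changed by -1.55 ± 0.20 (adjusted p = 0.00813), and Ethe1, which oxidises persulfide from cysteine breakdown, by -1.23 ± 0.15 (adjusted p = 0.00734). All 4 calls held with any 1 array left out, and the signs held under every scaling.

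The 4 that rose were led by branched-chain genes. Ppm1k, the phosphatase that switches on the branched-chain ketoacid dehydrogenase, was at 0.12, 0.02 and -0.14 in vehicle and 1.23, 1.36 and 0.82 in ADBAQ (1.14 ± 0.16, adjusted p = 0.00982). Bcat2, the mitochondrial branched-chain aminotransferase, named after its value was seen, was at -0.69, -0.79 and -0.60 against 0.13, 0.19 and 0.20 (0.87 ± 0.09, adjusted p = 0.00448). These were clean separations that held with any 1 array left out. Bcat1, the cytosolic form, rose from -4.76, -4.65 and -4.63 to -3.05, -3.40 and -2.64 (1.65 ± 0.19, adjusted p = 0.00611), a dim signal whose change was 0.29 (adjusted p = 0.0679) with normexp background correction. Srr, serine racemase, rose by 0.51 ± 0.10 (adjusted p = 0.0222), a call that stood only when vehicle replicate 2 or ADBAQ replicate 3 was the array left out (highest adjusted p otherwise 0.0698). Pccb and Mcee of propionate handling, named after their values were seen, fell (both -0.58, and both 0.18 with spike-in scaling).

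By route, the further genes ranged from 3 of 4 lower for lysine and 6 of 11 for glutamate, alanine, aspartate and proline to 0 of 5 for histidine and folate and 0 of 2 for the urea cycle and its transport, with 5 of 11 for the aromatic amino acids, 5 of 13 for glycine, serine and threonine and 4 of 14 for methionine and cysteine. Of the 15 branched-chain genes 3 were lower and 3 higher (median -0.26). With spike-in scaling 0 were lower and 12 higher (median 0.5), against 1.65% and 78.8% of all genes. On that scale lysine had 1 lower and 0 higher, and glutamate, alanine, aspartate and proline 2 and 3. Histidine and folate had 0 and 3, the urea cycle and its transport 0 and 1, and the aromatic amino acids 0 and 7. Glycine, serine and threonine had 0 and 8, and methionine and cysteine 1 and 10. Dpyd, which starts pyrimidine breakdown and is the only further gene listed for it, also fell (-1.20 ± 0.16, adjusted p = 0.00905; -0.44 with spike-in scaling). Of 8 genes that make amino acids, such as Asns, Phgdh and Psat1, none passed the threshold by limma (median 0.12), while with spike-in scaling 6 were called higher (median 0.88). At an unadjusted p under 0.05 there was 1, Pycr1 (0.91 ± 0.32), named after its value was seen and also called with normexp background correction. Among 13 tested genes known to control this programme 2 fell and none rose, while with spike-in scaling none was lower and 7 were higher. Both were named after their values were seen. Cebpa, a transcription factor of hepatocyte metabolism, was at 0.43, 0.63 and 0.78 in vehicle and -0.17, -0.35 and -0.44 in ADBAQ (-0.93 ± 0.13, adjusted p = 0.00899; -0.18 with spike-in scaling), and Nr3c1, the glucocorticoid receptor, was at 2.04, 2.08 and 2.24 against 1.50, 1.52 and 1.38 (-0.65 ± 0.10, adjusted p = 0.0109; 0.10 with spike-in scaling). Gcgr, the glucagon receptor, differed by -0.14 ± 0.12 (adjusted p = 0.418).

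**Figure D4:**
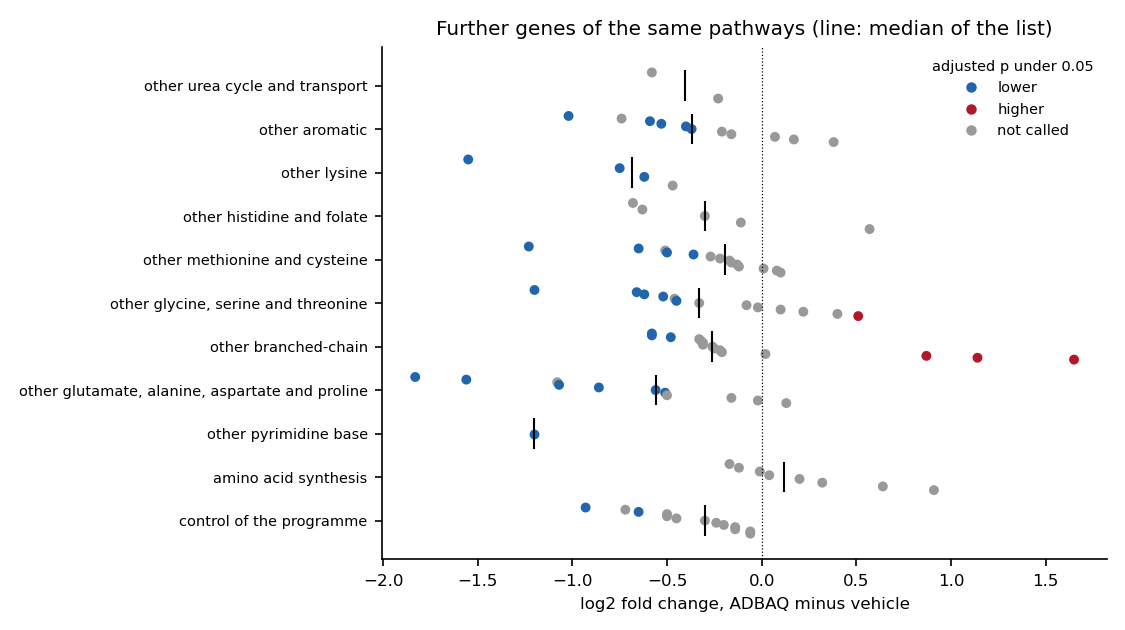
Log2 fold change (ADBAQ minus vehicle) of 97 further tested genes in 11 lists, 1 point per gene, with the list median as a line; blue and red mark an adjusted p under 0.05. Oat (-1.83), Aspg (-1.56) and Hykk (-1.55) lie farthest left and keep their sign with spike-in scaling, as do Bcat1 (1.65), Ppm1k (1.14) and Bcat2 (0.87) on the right.

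Of 52 tested markers of liver cell types, 13 (25%) were called lower, 3 (5.77%) higher and 36 were not called, against 11.3% lower and 9.05% higher among all genes. Of 9 general hepatocyte markers 6 were lower and none higher, with a median of -0.45. With quantile normalization 2 were lower (median -0.09), and with spike-in scaling 1 was lower and 3 were higher (median 0.31). The calls of Alb (-0.35) and Ttr (-0.37) were lost whichever array was left out (highest adjusted p = 0.134 and 0.112), and that of Fgb (-0.58) without ADBAQ replicate 1 (0.0534). Those of Serpina1 (-0.57), Apob (-0.67) and Apoc3 (-1.17) held with any 1 array left out. All 3 probes of Alb were called lower. With the mean of a gene's probes Alb changed by -0.59 (adjusted p = 0.013), and Ttr by -0.34 (adjusted p = 0.0553). With spike-in scaling Apoc3 was still called lower (-0.42), while Serpina1 (0.19) and Apob (0.08) turned positive. The summed level of the 9 hepatocyte markers, on the log2 scale, was 13.01 to 13.13 in vehicle and 12.50 to 12.64 in ADBAQ, and Alb, albumin, was well above background on all 6 arrays. Of 6 Kupffer cell markers none passed, with summed levels of 5.81 to 6.15 and 5.92 to 6.15. Signals were summed before the log2 was taken, so the brightest marker weighs most in a sum. These were Clec4f for Kupffer cells (vehicle mean 5.71), Kdr for endothelium (5.04) and Epcam for cholangiocytes (0.1). Of 5 cholangiocyte markers Epcam and Cftr were higher and Krt7 lower, with summed levels of 0.65 to 0.90 and 1.29 to 1.94. The call of Epcam (0.82) was lost whichever array was left out (highest adjusted p = 0.102), that of Cftr (0.83) without any 1 ADBAQ array (0.0569) and with normexp background correction (0.14, adjusted p = 0.244), and that of Krt7 (-0.61) without vehicle replicate 3, ADBAQ replicate 1 or ADBAQ replicate 2 (0.0734) and with spike-in scaling (0.14). For stellate cells (6 tested), endothelium (4) and neutrophils (3) none passed, and of 5 lymphocyte markers Cd8a was lower (-0.85), a call kept only when vehicle replicate 1 was the array left out (highest adjusted p otherwise 0.130). With spike-in scaling all 6 Kupffer cell, 5 of 6 stellate, 4 of 4 endothelial, 3 of 3 neutrophil, 4 of 5 lymphocyte and 4 of 5 cholangiocyte markers were called higher. Summed levels in vehicle and ADBAQ were 2.82 to 3.24 and 2.60 to 2.85 for stellate cells, 5.22 to 5.36 and 4.93 to 5.12 for endothelium, 1.03 to 1.39 and 1.11 to 1.17 for lymphocytes, and -0.16 to 0.61 and 0.27 to 1.30 for neutrophils. Of 57 markers listed 52 were tested. The filter on dim probes kept only those well above background on all 3 arrays of a group, so none could be below it throughout. Cd3e of lymphocytes (well above background on 0 vehicle and 3 ADBAQ arrays) and Csf3r of neutrophils (2 and 3) passed through the ADBAQ group alone. Of 6 periportal markers that are not members 2 were lower (Pck1 and Fbp1), and of 8 pericentral markers 3 were lower and 1, Rhbg, higher. With spike-in scaling these were 0 lower and 2 higher, and 1 lower and 3 higher. Leaving out 1 array ended the call of Pck1 for replicate 1 or 2 of either group (highest adjusted p = 0.0852), of Fbp1 for vehicle replicate 2, ADBAQ replicate 2 or ADBAQ replicate 3 (0.0624), of Glul for vehicle replicate 2, vehicle replicate 3 or ADBAQ replicate 1 (0.0623) and of Rhbg for vehicle replicate 3, ADBAQ replicate 2 or ADBAQ replicate 3 (0.0566). The other pericentral falls, those of Oat (-1.83) and Cyp2e1 (-1.06), held with any 1 array left out. Glul and Oat are also counted above among the further genes of glutamate, alanine, aspartate and proline. The part of cell composition in the changes of the members was not tested.

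**Figure D5:**
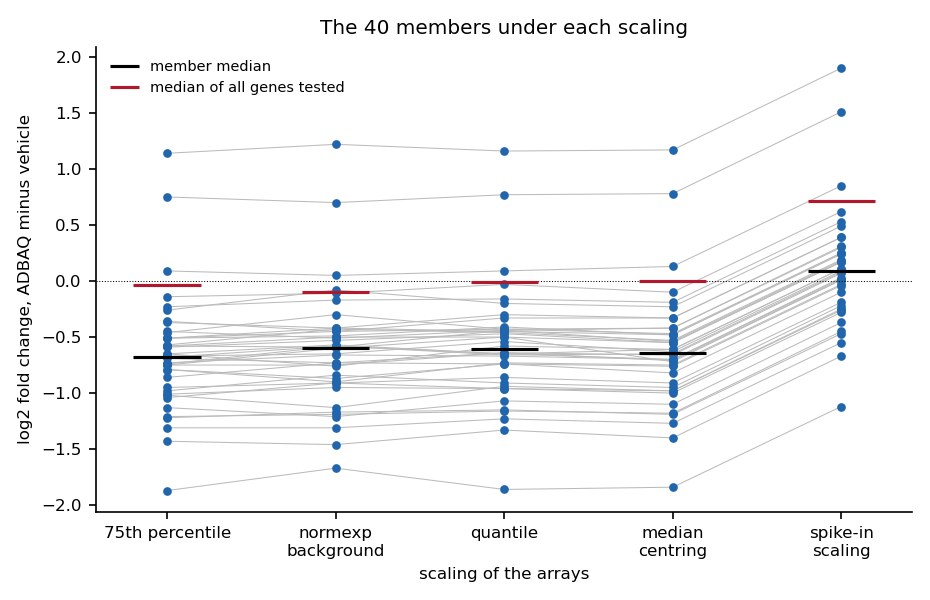
Log2 fold change of the 40 members (blue points, joined per gene) under 5 ways of scaling the arrays, with the member median in black and the median of all genes tested in red. The member median is -0.67, -0.59, -0.61, -0.64 and 0.08 from left to right, and the distance to the median of all genes lies between -0.64 and -0.50. Median centring and spike-in scaling shift each array by a constant and so cannot change that distance.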

How the data were processed

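Liver RNA of 3 vehicle and 3 ADBAQ rats was measured on 1-colour (Cy3) Agilent arrays. Spot intensities and the flags for background, saturation and outliers were deposited as Agilent Feature Extraction 10.7.1.1 output, per the file headers (10.7 per the submitters' processing notes), with array annotation of build rn4. The authors' deposited value table holds, on a linear scale, a ratio of each processed intensity to a level of its own array, found here by comparison with the scanner values to be near the 75th percentile; how it was made is not given in the sources used here.

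From these files, log2 of the processed signal minus each array's 75th percentile was computed, control spots (1319) and outlier spots (0 to 2 per array) were left out, and probes well above background on all 3 arrays of a group were kept (38695 of 61657). Of all probes, 27460 matched 15284 genes by RefSeq accession in a table of assembly GRCr8, and 34197 stayed unnamed. ADBAQ was set against vehicle by lmFit and eBayes of limma 3.58.1 (R 4.3.3), p was adjusted by the Benjamini-Hochberg method across the probes kept, and 0.05 was the threshold. The brightest probe stood for its gene. The test was checked on simulated data. The number of arrays limits the precision.

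The members and lists were chosen with earlier results of these data known. Per route, values on each array are given for the called member with the largest fall, every called riser and the member with the smallest change, and for all genes of the urea cycle and of routes with 3 members or fewer; of further genes, the largest called changes, up to 4 per direction and 2 per list. Genes named after their values were seen are marked so. Alternatives covered background correction, scaling, dim-probe filters, the deposited table, the variance model, array weights, probe choice, a replicate block and leaving out each array. Some results on further genes are not reported here.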

Additional observations from a re-analysis of the deposited data

How the results depend on the processing

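The member median kept its sign under every alternative run except spike-in scaling, where it was 0.08. On that scale 9124 genes were called in all, 5 members were lower and 8 higher, and these members changed sign: Nags 0.30, Asl 0.02, Arg1 0.17, Hpd 0.25, Fah 0.62, Tdo2 0.17, Afmid 0.31, Kmo 0.08, Haao 0.49, Ftcd 0.19, Mat1a 0.18, Ahcy 0.09, Bhmt 0.01, Cbs 0.11, Agxt 0.39, Gcat 0.39, Sds 0.11, Bckdha 0.53, Bckdhb 0.07, Glud1 0.01, Gpt 0.24, Dpys 0.03 and Upb1 0.25. The spike-in scale rests on 8 control probes, and the cause of its difference from the others was not tested. Of all gene calls, the share higher was 44.5% by the 75th percentile, 34.5% with normexp background correction, 50.8% with quantile normalization and 98.0% with spike-in scaling. The number of genes called was 4041 with normexp background correction and 3530 without the filter on dim probes, against 2308; the cause was not tested. With 1 array left out, which leaves 5 samples in the fit, it was 901 to 1547, with 503 to 845 genes lower and 398 to 702 higher. Members lower then numbered 19 to 25 and members higher 1 to 2. Replicate numbers did not pair the rats (correlations of same-numbered deviations -0.029, -0.02 and -0.005), and with the replicate block 982 genes were called, 553 lower and 429 higher. Of the members, 17 were then called lower and 1 higher. Slide as a block was not run, since each slide holds 1 group. The mean spot signal was not used here; normexp used the median spot signal.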
